A study of Mus musculus with 12 samples.

Results

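TGF-beta is a secreted cytokine that restrains T cell activation, and its signal is carried from the membrane to the nucleus by Smad proteins. The ligand brings together a type II and a type I receptor, the type I receptor phosphorylates Smad2 and Smad3, and these enter the nucleus with Smad4. Smad7 blocks the pathway at the receptor, and the nuclear proteins Ski, Skil (SnoN) and Tgif1 act with Smads as co-repressors. In CD8 T cells the pathway is known for limiting effector differentiation and for inducing the integrin chain Itgae (CD103) in tissue-resident cells.

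The 10 genes described here are the ligand Tgfb1, the receptors Tgfbr1 and Tgfbr2, the Smad genes Smad2, Smad3, Smad4 and Smad7, and the co-repressor genes Tgif1, Ski and Skil. They were chosen by symbol, with earlier results of these data known, and all 10 had a row among the 11581 genes of the table. CD8 T cells were purified from chimeras of mixed marrow for sequencing of their messenger RNA, 2 months after reconstitution of CD45.2+ C57BL/6 J mice. The groups compared were 3 unstimulated scurfy libraries, from chimeras made with OT-1 Foxp3Scurfy CD45.1+/2+ marrow mixed with CD45.2+ marrow, and 3 unstimulated wild-type libraries, from chimeras made in the same way with OT-1 Foxp3wt CD45.1+/2+ marrow. OT-1 cells carry a transgenic T cell receptor for the SIINFEKL peptide of ovalbumin, and scurfy mice lack working Foxp3, the factor that regulatory T cells depend on. The labels do not say how hosts were conditioned, by which marker donor cells were separated, or whether each library had its own mouse. The spread behind the p-values is therefore that between these samples and may be technical. The stimulated libraries were not analysed here.

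Reads summed over the 11581 genes of the table were 10091477 to 10498525 per scurfy library and 8852518 to 23149523 per wild-type library, with wild-type library 2 the highest. These sums leave out reads of genes without a row. The 10 genes had 90 to 8526 reads per library, the fewest for Skil in scurfy library 1 and the most for Smad7 in wild-type library 2. Values are normalized counts, that is, reads divided by the authors' size factor for each library, and are compared between libraries for 1 gene at a time, not between genes. All 8 CD8 T cell markers had a row, with summed levels of 58355 to 67159 normalized counts in scurfy and 51647 to 53230 in wild-type libraries, whereas Foxp3 and Cd4 had none. Of the 8, Cd3d and Cd2 were called higher in scurfy libraries (limma adjusted p = 0.00551 and 0.0376). Cd8a and Cd8b1 were not called (limma adjusted p = 0.561 and 0.986), with Cd8b1 means of 21566 in scurfy and 21498 in wild type. Of all 11581 genes, 4.47% had a limma adjusted p under 0.05 (518 genes), with 2.12% higher in scurfy libraries (246) and 2.35% lower (272). Scaled on library size alone, that is, on reads summed over the table without the authors' size factors, the split was 169 higher and 761 lower. The middle of all fold changes then moved by -0.14 on the log2 scale.

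Promoter sequences are shown for the ligand gene and for the co-repressor gene Tgif1, which changed in opposite directions in the scurfy libraries, as the stretches that would be read for elements of the pathway itself. Of the 10 genes, 6 had a RefSeq window on GRCm38.p6 of 250 bases before to 50 bases after an annotated start, and Tgif1 had 5 such windows. The Tgfb1 window lies at chr7:25686752-25687051 on the plus strand. The Tgif1 windows printed are those that hold a Smad binding element, at chr17:70853483-70853782 (window A) and chr17:70851685-70851984 (window B), on the minus strand. Capitals mark the searched motifs on either strand, namely the Smad binding element CAGACA, the GC-rich Smad site GGCGC and the Tgif site TGACAG.
Tgfb1: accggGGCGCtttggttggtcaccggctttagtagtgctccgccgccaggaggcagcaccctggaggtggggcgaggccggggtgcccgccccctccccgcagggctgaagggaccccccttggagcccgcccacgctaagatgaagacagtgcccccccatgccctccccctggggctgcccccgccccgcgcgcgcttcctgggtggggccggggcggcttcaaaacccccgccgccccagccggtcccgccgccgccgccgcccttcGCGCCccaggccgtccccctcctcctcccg
Tgif1 window A: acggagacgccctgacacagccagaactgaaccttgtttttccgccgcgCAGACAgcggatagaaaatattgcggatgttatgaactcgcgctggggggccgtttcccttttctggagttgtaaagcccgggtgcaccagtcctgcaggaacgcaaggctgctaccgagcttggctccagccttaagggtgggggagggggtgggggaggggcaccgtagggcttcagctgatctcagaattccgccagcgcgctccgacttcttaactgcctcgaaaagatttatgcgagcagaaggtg
Tgif1 window B: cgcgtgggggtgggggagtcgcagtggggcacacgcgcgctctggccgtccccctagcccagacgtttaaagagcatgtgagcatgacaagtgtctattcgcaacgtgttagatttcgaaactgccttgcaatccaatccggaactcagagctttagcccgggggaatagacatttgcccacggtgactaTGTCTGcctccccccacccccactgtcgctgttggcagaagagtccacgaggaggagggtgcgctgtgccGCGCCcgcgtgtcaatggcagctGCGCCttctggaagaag

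The Tgfb1 window held 2 matches to GGCGC and none to the other motifs. Tgif1 window A held 1 match to CAGACA, and window B held 1 match to CAGACA, on the opposite strand, and 2 to GGCGC. Over the 11 windows of the 6 genes, 3 held CAGACA, 6 held GGCGC and 2 held TGACAG, these 2 being Tgif1 windows that are not printed. Of all 32851 windows in the table, 21.04% held CAGACA, 36.86% held GGCGC and 19.18% held TGACAG, counting both strands, on which GGCGC can overlap its own complement. Windows A and B were picked for holding CAGACA, so their matches to it cannot be set against that share. These matches are letters in a window, and no binding was measured.

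The ligand gene and 2 inhibitors of the pathway moved in opposite directions. Tgfb1 rose in scurfy libraries, while Smad7, the inhibitory Smad, and Tgif1, the homeodomain co-repressor, fell. These 3 of the 10 genes passed the threshold, 1 higher and 2 lower, beside 4.47% of all genes tested (2.12% higher and 2.35% lower). The groups did not overlap for 7 of the 10, 1 higher and 6 lower, beside 27.1% of all genes (13.4% higher and 13.7% lower). Of the 10, 8 had a negative log2 fold change, beside 48.9% of all genes, and the median of the 10 was -0.29 against 0.01 for the whole table. Since the 10 were chosen with earlier results known, these shares are a description and do not measure an excess in the pathway. The levels come from bulk RNA, in which fewer cells of a type and less RNA per cell cannot be told apart.

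**Figure D1:**
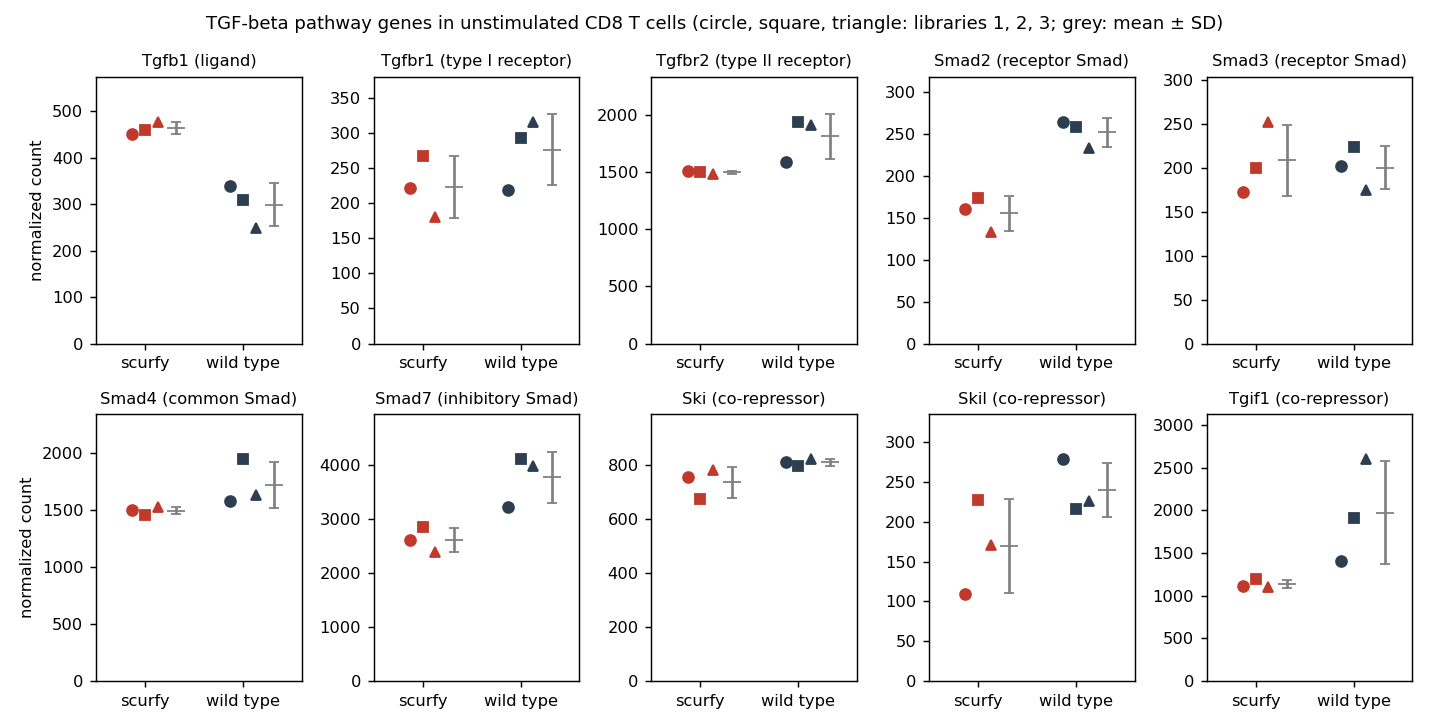
Normalized counts (y axis, from 0) of the 10 genes in scurfy (left) and wild-type (right) libraries, with circles, squares and triangles for libraries 1, 2 and 3 and grey bars for the mean ± SD (n = 3 each). Tgfb1 lies higher in all 3 scurfy libraries, at 452 to 478 against 248 to 339, whereas Smad7 and Tgif1 lie lower in all 3.

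Tgfb1 (ENSMUSG00000002603, chromosome 7) encodes the cytokine. It had 452, 460.1 and 478 normalized counts in scurfy libraries 1 to 3, against 339, 309 and 248 in wild-type libraries 1 to 3. The scurfy libraries lay close together and the lowest of them was 33.2% above the highest wild-type library. The means were 463 ± 13.2 in scurfy and 299 ± 46.2 in wild type (SD, n = 3 each), a 1.56-fold rise (log2 fold change 0.64, SE 0.16, limma adjusted p = 0.0345). The authors' deposited table gives 0.64 with an adjusted p of 0.00677. The call held when wild-type library 1 was left out (adjusted p = 0.0417) and ended when any of the other 5 was, with adjusted p up to 0.12 without wild-type library 3, where the log2 fold change was 0.51. It also ended on library size alone (0.51, adjusted p = 0.059) and with a trend with GC content removed (0.58, adjusted p = 0.0561). With the replicate number as a block it ended too (0.64, limma adjusted p = 0.0579).

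Tgfb1 is made by many blood cells besides T cells, so markers of other cells are given beside it. Of 11 myeloid and dendritic cell markers only Cst3 and Cd68 had a row, with summed levels of 1463 to 1579 normalized counts in scurfy and 850.2 to 1172 in wild-type libraries. Most of each sum was Cst3, at 1406 to 1523 in scurfy and 821 to 1131 in wild type. Cst3 rose (log2 fold change 0.59, limma adjusted p = 0.0202), while Cd68 did not pass (0.74, limma adjusted p = 0.21). Lyz2, Itgam, Itgax and Csf1r had no row. Of 6 platelet and megakaryocyte markers Itga2b and Itgb3 had a row, with sums of 106 to 213 in scurfy and 122 to 139.6 in wild type, and Pf4 and Ppbp had none. Of 6 regulatory T cell markers 4 had a row, with sums of 585 to 739 in scurfy and 596 to 675 in wild type. Of 12 B cell markers 7 had a row, with sums of 9895 to 11352 in scurfy and 10971 to 11753 in wild type. Most of each sum was Ighm, at 9504 to 10973 in scurfy and 10422 to 11206 in wild type. Ms4a1 and Cd79a were without a row, and H2-Aa, at 15.7, 0 and 4.73 in scurfy and 57.2, 84.1 and 73.9 in wild-type libraries, fell (limma adjusted p = 0.0164). H2-Ab1, H2-Eb1 and Cd74 also lay lower in every scurfy library without passing (limma adjusted p = 0.0638, 0.0844 and 0.202). For Ighm, Ighd and Cd79b the groups overlapped. Of 5 natural killer cell markers only Itga2 had a row, at 17.1 to 42.6 in scurfy and 15.1 to 18.4 in wild type. Of 7 erythroid markers only Car2 had a row, and it fell, at 101 to 156 in scurfy and 232 to 315 in wild type (log2 fold change -1.12, limma adjusted p = 0.0139). The part of such cells in the Tgfb1 difference was not tested.

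The receptor genes did not pass the threshold. Tgfbr2 (ENSMUSG00000032440, chromosome 9), the receptor that binds the ligand first, had 1505, 1499.9 and 1482 normalized counts in scurfy libraries and 1587, 1940.1 and 1909 in wild-type libraries. All scurfy libraries lay below all wild-type libraries, but the gap between the groups was 5.17% of the lowest wild-type value. The log2 fold change was -0.27 with an unadjusted 95% interval of -0.51 to -0.03 (limma adjusted p = 0.172), which corresponds to a level 0.70 to 0.98 times that of wild type. Scurfy libraries were far more alike than wild-type libraries for this gene, at 1496 ± 11.9 and 1812 ± 196 (SD, n = 3 each).

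Tgfbr1 (ENSMUSG00000007613, chromosome 4), the kinase that phosphorylates Smad2 and Smad3, had 222, 267 and 179.7 normalized counts in scurfy and 219, 292 and 316 in wild-type libraries. The groups overlapped, with wild-type library 1 below 2 of the 3 scurfy libraries. Its log2 fold change was -0.31 (interval -0.74 to 0.13, limma adjusted p = 0.409), so that neither a fall to 0.60 times nor a rise to 1.09 times the wild-type level lay outside the interval. The reads of Tgfbr1 per read of Tgfbr2, a ratio within a library that library scaling does not change, were 0.147, 0.178 and 0.121 in scurfy and 0.138, 0.151 and 0.166 in wild-type libraries, which overlapped.

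Among the Smads that carry the signal, Smad2 stood lower in scurfy libraries without passing the threshold in limma. Smad2 (ENSMUSG00000024563, chromosome 18) had 159.8, 173 and 132 normalized counts in scurfy libraries, against 265, 258 and 232 in wild-type libraries. The highest scurfy library was 25.5% below the lowest wild-type library. The means were 155 ± 20.8 in scurfy and 252 ± 16.9 in wild type (SD, n = 3 each), and the log2 fold change of -0.70 (SE 0.19, interval -1.11 to -0.29) had a limma adjusted p of 0.0512. It passed with edgeR on recovered reads (adjusted p = 0.0473), where 4 of the 10 genes were called beside 4.71% of all genes (2.18% higher and 2.53% lower). DESeq2 on recovered reads called it too (adjusted p = 0.0167), with the same 4 of 10 beside 8.9% (4.15% higher and 4.76% lower). That share is of the 10008 genes to which DESeq2 gave an adjusted p, not of all 11581. The authors' deposited table gives the same values for Smad2 (log2 fold change -0.70, adjusted p = 0.0167) and the same number of calls, 891 of 10008 genes. The DESeq2 fit therefore repeats the authors' analysis and is not a further call. Voom did not call Smad2 (adjusted p = 0.0525), with 3 of the 10 called beside 4.77% (2.3% higher and 2.47% lower). It also passed when genes with a mean under 50 were left out first (adjusted p = 0.0411), and did not pass in any fit that left out 1 library (adjusted p from 0.0847 to 0.143).

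Smad3 (ENSMUSG00000032402, chromosome 9), the closest relative of Smad2, had 173, 200.1 and 253 normalized counts in scurfy and 202, 224 and 175 in wild-type libraries. The groups overlapped fully, and the log2 fold change was 0.05 (interval -0.39 to 0.48, limma adjusted p = 0.92), its sign turning to -0.089 on library size alone. The reads of Smad2 per read of Smad3 within a library were 0.923, 0.866 and 0.523 in scurfy and 1.31, 1.15 and 1.33 in wild-type libraries. These ratios, computed after the values had been seen, did not overlap between the groups and were not tested.

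Smad4 (ENSMUSG00000024515, chromosome 18), the shared partner of the receptor-activated Smads, had 1501, 1459.6 and 1527 normalized counts in scurfy libraries and 1580.5, 1949.7 and 1629 in wild-type libraries. The groups were separated by 3.37% of the lowest wild-type value, and the log2 fold change was -0.19 (interval -0.43 to 0.04, limma adjusted p = 0.337). A fall to 0.74 times the wild-type level lay at the edge of the interval. As for Tgfbr2, the wild-type libraries spread more widely, at 1496 ± 34.1 in scurfy and 1719.75 ± 201 in wild type (SD, n = 3 each).

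Smad7 (ENSMUSG00000025880, chromosome 18) is itself induced by TGF-beta signalling and feeds back on the receptor. It had 2608, 2852 and 2397 normalized counts in scurfy libraries, against 3226, 4121 and 3981 in wild-type libraries. Every scurfy library was below every wild-type library, with a gap of 11.6% of the lowest wild-type value. The means were 2619 ± 228 in scurfy and 3776 ± 481 in wild type (SD, n = 3 each), and the log2 fold change was -0.52 (SE 0.12, limma adjusted p = 0.0234), a level 0.70 times that of wild type. It passed without scurfy library 2 (adjusted p = 0.0456) and without wild-type library 1 (0.0208), and not without any of the other 4, with adjusted p up to 0.0957 without wild-type library 2. Its log2 fold change stayed between -0.63 and -0.46 in these fits. Smad7 reads per Smad4 read were 1.74, 1.95 and 1.57 in scurfy libraries and 2.04, 2.11 and 2.44 in wild-type libraries, without overlap, and this ratio too was computed after the values had been seen.

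Of the co-repressor genes, Tgif1 fell and Ski and Skil did not pass. Tgif1 (ENSMUSG00000047407, chromosome 17) had 1115, 1189.9 and 1099 normalized counts in scurfy libraries, against 1401, 1904 and 2603 in wild-type libraries. The scurfy values differed by 1.08-fold at most, the wild-type values by 1.86-fold, and the highest scurfy library lay 15.1% below the lowest wild-type library. The means were 1135 ± 48.4 in scurfy and 1969 ± 603 in wild type (SD, n = 3 each), and the log2 fold change was -0.75 (SE 0.17, limma adjusted p = 0.0274), a level 0.59 times that of wild type. Without wild-type library 3, the highest of the 6, the log2 fold change was -0.53 (adjusted p = 0.0822). Without wild-type library 1, the lowest of its group, it was -0.97 (adjusted p = 0.00745), and leaving out any of the other 5 ended the call, with adjusted p up to 0.0869. A processed pseudogene of Tgif1 is annotated, with no row in the table, and its reads could have been counted with the gene or lost.

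Ski (ENSMUSG00000029050, chromosome 4), which binds Smads and recruits repressor complexes, had 757, 674 and 781 normalized counts in scurfy and 811, 797 and 824 in wild-type libraries. The gap between the groups was 2.02% of the lowest wild-type value. Its log2 fold change was -0.14 (interval -0.39 to 0.11, limma adjusted p = 0.536), the narrowest bounds among the co-repressors. Skil (ENSMUSG00000027660, chromosome 3), a relative of Ski that TGF-beta signalling both degrades as a protein and induces as a gene, had 109, 227 and 171 normalized counts in scurfy and 279, 216 and 226 in wild-type libraries. The groups overlapped, and scurfy library 1 rested on 90 reads. The log2 fold change was -0.56 (interval -1.09 to -0.03, limma adjusted p = 0.211), and it was -0.27 without scurfy library 1 and -0.80 without scurfy library 2.

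**Figure D2:**
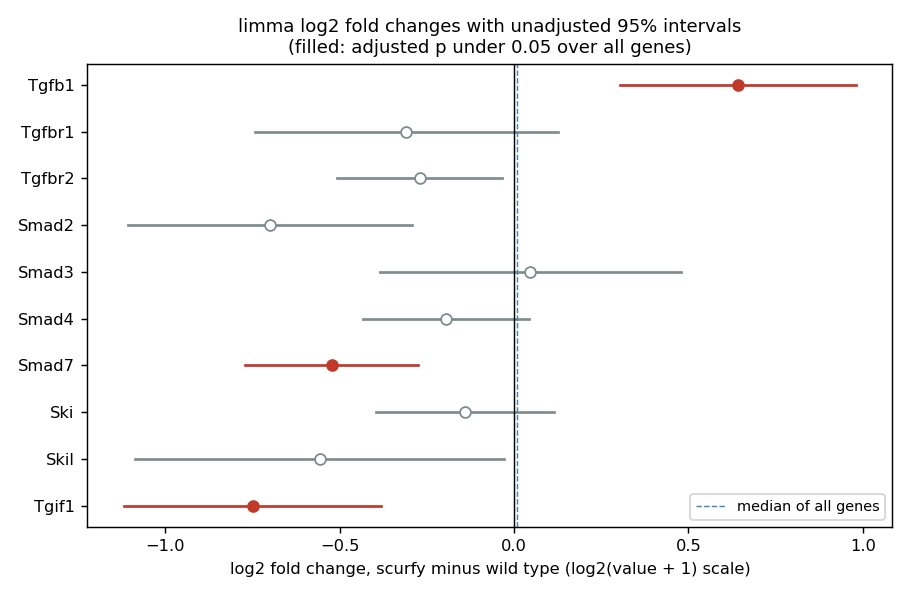
Log2 fold changes (x axis, scurfy minus wild type on the log2(value + 1) scale) of the 10 genes from limma, with unadjusted 95% intervals as bars, filled points for an adjusted p under 0.05 and a dashed line at the median of all genes. Tgfb1 is the only filled point on the right, at 0.64, and Smad7 at -0.52 and Tgif1 at -0.75 are the filled points on the left.

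**Figure D3:**
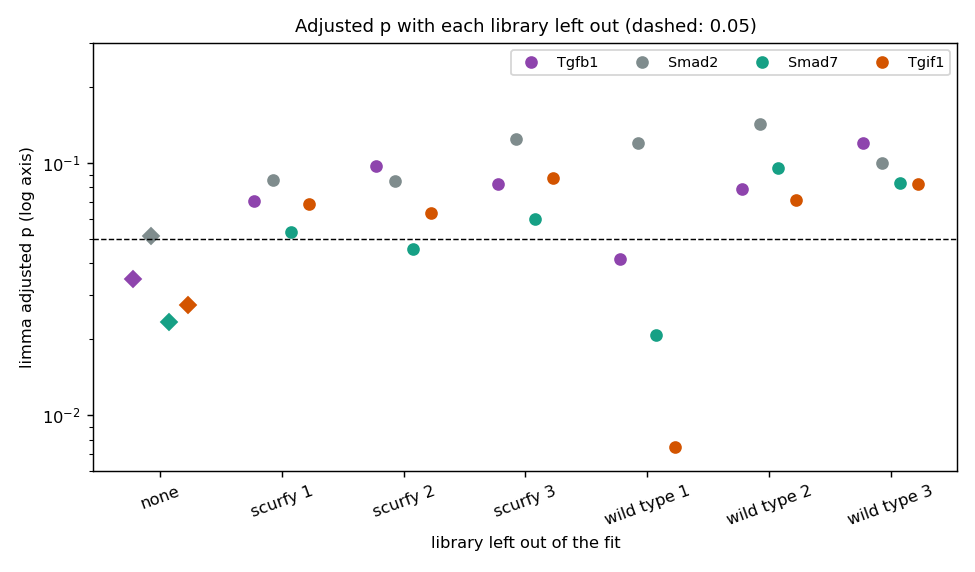
Limma adjusted p (log axis) of Tgfb1, Smad2, Smad7 and Tgif1 in the fit over all 6 libraries (diamonds) and with the library on the x axis left out (circles), with a dashed line at 0.05. Without wild-type library 1, Tgfb1 (0.0417), Smad7 (0.0208) and Tgif1 (0.00745) stay under the line, and without scurfy library 2 only Smad7 does (0.0456). Without scurfy library 1 or 3, or wild-type library 2 or 3, all 4 genes lie above it.

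Ratios within a library do not depend on how libraries are scaled. Tgif1 reads per Tgfb1 read were 2.47, 2.59 and 2.30 in scurfy libraries and 4.13, 6.16 and 10.5 in wild-type libraries, a pair chosen after its values were seen, whose ratio had to be lower in scurfy libraries since neither gene's groups overlap. Across the 10 genes the profiles most alike over the 6 libraries were those of Tgfbr2 and Smad4, whose centred log2 values differed by a root mean square of 0.0888, followed by Smad4 and Ski at 0.119. Among 8497 other genes with a mean of at least 50, the profile nearest to Tgfb1 was that of Spata2 (root mean square difference 0.0593), then Nedd8 (0.0686) and S100a10 (0.0691). Nearest to Smad7 were THAP6 (0.0498), Clasp1 (0.0614) and Grpel2 (0.0653). Nearest to Tgif1 were G2e3 (0.0744), Pydc3 (0.0822) and Irgm1 (0.107). These are the smallest distances over 6 libraries in 2 groups, given as a description.

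Gene length moved with the comparison as a whole, so it is given beside the fold changes. In the 1098 genes with under 1000 exonic bases the median log2 fold change was 0.33, and in the 5881 with over 4000 bases it was -0.05. The 10 genes are long, from 3712 bases (Smad4) to 9694 (Skil), with 9 over 4000 bases. With the length trend removed, the same 3 genes passed, beside 2.63% of all genes (1.15% higher and 1.49% lower): Tgfb1 at 0.68 (limma adjusted p = 0.0384), Smad7 at -0.49 (0.0377) and Tgif1 at -0.71 (0.044). Smad2 was then at -0.60 (adjusted p = 0.0999).

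The rest of the pathway was read from 9 further lists, of 117 distinct genes, of which 82 had a row. Of these 82, 1 rose and 4 fell in limma, which is 6.10% beside 4.47% of all genes, and 77 did not pass. The groups did not overlap for 22 of the 82 (26.8%, 5 higher and 17 lower), beside 27.1% of all genes (13.4% higher and 13.7% lower). Their median log2 fold change was -0.09.

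Among 13 genes of ligand supply and activation, 3 had a row and none passed. Itgav, the integrin chain that takes part in release of latent TGF-beta, had 98.1, 98.9 and 59.1 normalized counts in scurfy and 110, 137 and 122 in wild-type libraries (log2 fold change -0.56, limma adjusted p = 0.256). Of 12 other receptors 6 had a row and none passed, with Acvr1b, a type I activin receptor, closest at -0.24 (adjusted p = 0.361). Of 4 other Smads 2 had a row, Smad1 at 0.06 and Smad5 at -0.05.

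All 13 ubiquitin ligases and deubiquitinases had a row, 1 fell and 12 did not pass in limma. DESeq2 on recovered reads called Uchl5, Smurf2 and Rnf111, all lower (DESeq2 adjusted p = 0.00765, 0.035 and 0.0402). Uchl5, a deubiquitinase of the proteasome that binds Smads, had 387, 464 and 377 normalized counts in scurfy libraries and 537, 630.3 and 681 in wild-type libraries (log2 fold change -0.59, SE 0.15, limma adjusted p = 0.0373). The groups did not overlap, and the call held in 1 of the 6 fits that left out a library, with adjusted p up to 0.13 without wild-type library 3. Of 10 adaptors, anchors and phosphatases 8 had a row, 1 rose and 7 did not pass. Ppp1ca, a catalytic subunit of protein phosphatase 1, had 4524, 4723 and 4689 in scurfy and 3670.1, 3323 and 3564 in wild-type libraries (log2 fold change 0.40, SE 0.10, limma adjusted p = 0.0308). Its call ended whichever library was left out, with adjusted p up to 0.114 without wild-type library 2, and with the length trend removed (adjusted p = 0.0528). None of 10 genes of the non-Smad branch passed, with Tab1 at 0.28 (adjusted p = 0.411).

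Of 22 nuclear co-repressors and co-activators 20 had a row, 2 fell and 18 did not pass. Kat2b, the acetyltransferase PCAF, had 174, 159.9 and 226 normalized counts in scurfy libraries and 331, 362 and 397 in wild-type libraries (log2 fold change -0.97, SE 0.18, limma adjusted p = 0.0128). It was below every wild-type library in all 3 scurfy libraries, and its call ended only without wild-type library 3 (adjusted p = 0.0571). Rbl1, the pocket protein p107 that works with Smad3 in repression of Myc, had 409, 265 and 318 in scurfy and 553, 529.7 and 527 in wild-type libraries (log2 fold change -0.72, SE 0.17, limma adjusted p = 0.0274). Its call held in 1 of the 6 such fits, with adjusted p up to 0.104 without scurfy library 2.

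Genes that TGF-beta is known to raise or lower were read as 2 lists. Of 18 genes raised by TGF-beta, 12 had a row and none passed in limma. Tsc22d1 was closest at -0.57 (limma adjusted p = 0.0526), and the median was -0.25. DESeq2 on recovered reads, the repeat of the authors' analysis, called Tsc22d1 and Junb, both lower (DESeq2 adjusted p = 0.0158 and 0.00707). That fit called 8.9% of the 10008 genes it gave an adjusted p. Itgae, named after its values were seen as the best known of them in CD8 T cells, had 1698, 1966 and 1824 normalized counts in scurfy and 2062, 2305 and 2175 in wild-type libraries, without overlap (log2 fold change -0.25, limma adjusted p = 0.178). Skap1 went the other way, also without overlap (0.25, limma adjusted p = 0.193). Klf10, Ctla4 and Rgs16 were above 0 as well (0.49, 0.26 and 0.13), with overlap. The groups did not overlap for 6 of the 12, beside 27.1% of all genes. Of 15 genes lowered by TGF-beta 8 had a row, 1 fell and 7 did not pass in limma, with a median of -0.19. DESeq2 called S1pr1 and Klf2, both lower (DESeq2 adjusted p = 9.12e-06 and 0.0481). S1pr1, the receptor for exit from lymphoid organs, had 2676, 2757 and 2095 in scurfy libraries and 3681, 4360.1 and 4665 in wild-type libraries (log2 fold change -0.76, limma adjusted p = 0.00673), and passed in all 6 fits that left out a library (adjusted p up to 0.0328). The medians of the raised and the lowered list thus had the same sign, and neither list was tested as a set.

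**Figure D4:**
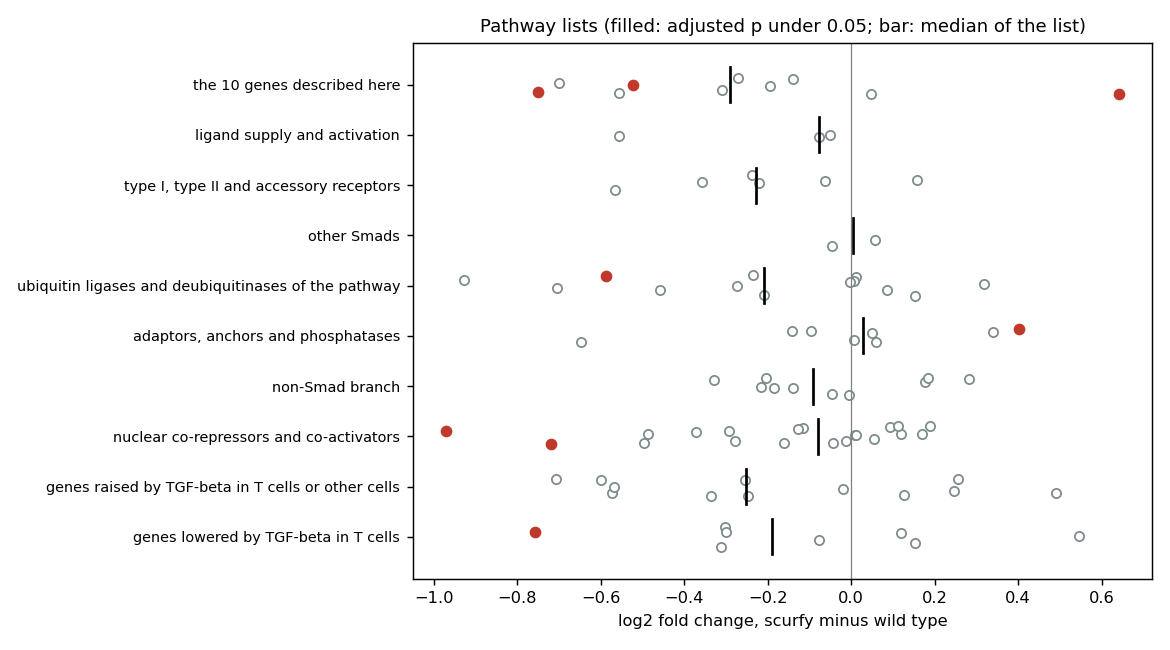
Log2 fold changes (x axis, scurfy minus wild type) of the 10 genes and of the measured genes of 9 further pathway lists, with filled points for a limma adjusted p under 0.05 and a black bar at each list's median. The 10 genes have a median of -0.29, and the lists of genes raised and lowered by TGF-beta have medians of -0.25 and -0.19.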

How the data were processed

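Per the submitters' processing notes, Trim Galore 0.4.4, STAR 2.6, featureCounts, edgeR and DESeq2 were used, with build NCBIM37. Whether reads were counted by strand is not stated there, but no other annotated exon overlaps those of the 10 genes. The 2 deposited tables hold identical values, named after the 6 unstimulated libraries, so 1 was used. Its deposited values are a signal, read counts divided by a size factor per library. Every nonzero value equalled a whole number of reads to within 0.01 read, and these are the recovered reads. Per the file headers, the authors also deposited, for each gene, a log2 fold change, its error, a test score and a p-value before and after adjustment. A gene with no row says nothing about its level.

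The main test was limma 3.58.1 (R 4.3.3) on log2(value + 1), with trend and robust moderation, over all 11581 genes, with Benjamini-Hochberg adjustment at 0.05 without covariates. A positive log2 fold change means a higher level in scurfy libraries. Alternatives used edgeR 4.0.16, DESeq2 1.42.0 and voom on recovered reads, other pseudocounts, filters and scalings, length or GC trends removed (GENCODE M21, 11571 genes matched), a replicate block and left-out libraries. Tests were tried on simulated data. Within each group, counts of any pair of libraries differed by 7.65 to 39.2 times the sampling variance, which speaks only to the same library being deposited more than once.

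The members and lists were chosen with earlier results of these data known. The 10 genes are all named. From each further list the called genes, up to 4, or the gene with the smallest p, are named, and for each called member the 3 genes with the nearest profile.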

Additional observations from a re-analysis of the deposited data

How the results depend on the processing

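The directions of the 10 genes held in all 18 alternatives except that of Smad3, whose log2 fold change was -0.089 on library size alone, -0.016 with the GC trend removed, -0.10 to 0.17 with 1 library left out (below 0 without scurfy library 3 or wild-type library 3), and -0.19 without both library 3 of scurfy and library 3 of wild type, a setting chosen after seeing the data. Smad7 passed in 13 of the 18, Tgif1 in 12, Tgfb1 in 9 and Smad2 in 6, and the other 6 genes in none. With 1 library left out, 0 to 3 of the 10 passed, and over all genes 113 to 403 passed, 76 to 180 of them higher and 37 to 223 lower. Without both libraries numbered 3, 0 of the 10 passed, and 290 genes in all, 109 of them lower, against 518 and 272. On library size alone 930 genes passed, 761 of them lower. DESeq2 on recovered reads called 891 of the 10008 genes it gave an adjusted p, 415 higher and 476 lower, the same numbers as in the authors' deposited table. With the length trend removed 305 passed, 133 higher and 172 lower, and with the GC trend removed 176 were lower. The cause of these shifts was not tested. Deviations of libraries with the same number in both groups had correlations of -0.03, -0.07 and -0.15, against -0.12 to 0.16 for differently numbered libraries. With 3 libraries per group, such weak values cannot decide whether the numbers pair the samples. With the replicate block 372 genes passed, and 2 of the 10, Smad7 and Tgif1, while Tgfb1 had an adjusted p of 0.0579. Counting error was up to 10.5% of the value at the lowest count of reads (Skil).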

Other observations

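Of the 82 further pathway genes, 17 had groups that did not overlap and did not pass the threshold in limma, 4 of them higher and 13 lower in scurfy libraries. Over all genes, called ones included, the groups did not overlap for 13.4% higher and 13.7% lower. The share of all genes that did not overlap and did not pass was not counted. Those of the 17 with an adjusted p under 0.1 are given here, chosen after their values were seen, beside Tsc22d1, whose fold change is in the report. Rnf111 (Arkadia), a ubiquitin ligase that degrades Ski, Skil and Smad7, had 209, 124 and 81.6 normalized counts in scurfy libraries and 226, 256 and 257 in wild-type libraries (log2 fold change -0.93, limma adjusted p = 0.0714). Smurf2, a ligase that Smad7 brings to the receptor, had 518, 537 and 565 in scurfy and 870.7, 679.6 and 688 in wild-type libraries (-0.46, limma adjusted p = 0.0697). Junb, a transcription factor of the AP-1 family that TGF-beta induces in several cell types, had 1492, 1339 and 907 in scurfy and 1757, 1674 and 2675 in wild-type libraries (-0.71, limma adjusted p = 0.0697). Eif3i, a translation factor subunit that binds the type II receptor, had 4783, 5244 and 4797 in scurfy and 4307, 3370.2 and 4077 in wild-type libraries (0.34, limma adjusted p = 0.0933), and was the one of these that stood higher. DESeq2 on recovered reads called Rnf111, Smurf2 and Junb (DESeq2 adjusted p = 0.0402, 0.035 and 0.00707) and Tsc22d1 (0.0158), but not Eif3i (0.0613).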
